A study of Mus musculus with 96 samples.

Results

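Reads of 6 insulin-like growth factor (IGF) binding protein genes, Igfbp2, Igfbp3, Igfbp4, Igfbp5, Igfbp6 and Igfbp7, were followed through single mouse cells. They were chosen by symbol and made up 6 of the 21711 gene rows of the table. Cells came from 1 plate profiled by single-cell tagged reverse transcription (STRT), in which a barcode marks the well and stranded reads begin at transcript 5′ ends. The plate held 48 embryonic stem (ES) cells of the line R1, a pluripotent line derived from early embryos, 44 mouse embryonic fibroblasts (MEFs), which are connective tissue cells cultured from embryos, and 4 negative control wells. Neither type carried a stated treatment or engineered allele. MEFs grew in serum-containing DMEM with 2-mercaptoethanol and ES cells in a medium of their own, and nothing used here states feeder cells, embryo number or passage. The labels also list R1 as source line for the MEF wells, at odds with the type they name, and the named type set the groups. Wells were kept with at least 10000 gene reads, which left 45 of 48 ES cells (replicates 32, 44 and 46 were dropped) and all 44 MEFs.

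IGF binding proteins are secreted proteins that hold IGF1 and IGF2 outside the cell. By binding them they keep the ligands from the IGF1 receptor, carry them through blood and tissue, and release them when proteases cut the binding protein. Igfbp2 is the main form of fetal serum, Igfbp3 the main carrier of adult serum, Igfbp5 a form that also binds matrix, Igfbp6 a form that prefers IGF2, and Igfbp7 a more distant, matrix-associated relative with low affinity for IGFs. Fibroblasts are a known source of several of them.

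Single MEFs were deeper than single ES cells, with a median of 851801 gene reads per well (63938 to 1883709) against 161206 (13576 to 703423), and negative control wells held 236 to 4662. Labels and markers went together: the 8 pluripotent markers summed to a median of 6389 counts-per-million of gene reads (CPM) in ES cells and 22.7 CPM in MEFs, with Nanog at 0 in every MEF. The 11 fibroblast markers summed to 1104 CPM in ES cells and 21969 CPM in MEFs. ES cell replicates 4, 7 and 30 stood apart, with 24303, 19507 and 8743 CPM of the fibroblast markers. Sums of the macrophage, endothelial and epithelial markers had a median of 0 in MEFs, whereas the 5 pericyte and smooth muscle markers, some of which cultured fibroblasts also express, reached a median of 1322 CPM in MEFs and 53.2 CPM in ES cells. In the negative controls the fibroblast markers reached a median of 18822 CPM and the pluripotent markers 5771 CPM, so reads of both types reached empty wells.

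The 6 genes lie in 5 places of the genome (GENCODE vM21, GRCm38). Igfbp2 (chromosome 1, 72824503 to 72852474, plus strand) and Igfbp5 (chromosome 1, 72857932 to 72874884, minus strand) end 5457 bases from each other. Igfbp3 (chromosome 11, 7206086 to 7213923, minus strand) has Igfbp1 as its neighbour at a distance of 3539 bases. Igfbp4 is farther along the same chromosome (chromosome 11, 99041244 to 99054392, plus strand). Igfbp6 (chromosome 15, 102144362 to 102149511, plus strand) and Igfbp7 (chromosome 5, 77349240 to 77408041, minus strand) stand alone. All reads assigned to the 6 genes over the plate were unique (100% for each), so no copy elsewhere shared them.

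Because STRT counts 5′ ends, the 100 bases before the RefSeq start (GRCm38.p6) show what precedes the measured end. They are printed for the 3 genes with a TATA-type motif and for Igfbp7, the member that every MEF held. Capitals mark the TATA box core TATAAA or one of its variants, which were TATATA and also the letters TTTAAA. Both strands were searched, and no marked motif overlaps another.
Igfbp3, chr11:7213924-7214023, minus strand: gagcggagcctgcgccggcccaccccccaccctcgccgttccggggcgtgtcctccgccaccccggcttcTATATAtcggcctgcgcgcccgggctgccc
Igfbp4, chr11:99041144-99041243, plus strand: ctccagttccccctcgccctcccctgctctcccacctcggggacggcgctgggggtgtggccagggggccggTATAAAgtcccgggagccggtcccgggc
Igfbp5, chr1:72874866-72874965, minus strand: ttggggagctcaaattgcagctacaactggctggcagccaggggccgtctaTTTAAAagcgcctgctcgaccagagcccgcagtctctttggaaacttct
Igfbp7, chr5:77408046-77408145, minus strand: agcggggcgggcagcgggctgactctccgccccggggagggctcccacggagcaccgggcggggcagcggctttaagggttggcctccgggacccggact

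Counted to its first base, the motif lay 30 bases before the start in Igfbp3, 28 in Igfbp4 and 49 in Igfbp5. A motif of this kind was present in 10.9% of the 32851 promoter windows of this length, with TATAAA present in 5.56%, the variant TATATA present in 2.19% and the variant TTTAAA present in 4.39%. Neither the Igfbp6 window, the 2 Igfbp2 windows nor the Igfbp7 window held these letters. GGGCGG, the core of the GC box, was found at 3 places on either strand before Igfbp7 and at 2 places in the first Igfbp2 window, and 24.7% of all windows held it. The Igfbp6 window starts from a RefSeq start that lies 176 bases before the GENCODE one. For Igfbp5 the GENCODE start (72874884) lies inside the printed window, and thus closer to the motif than the RefSeq start. These matches describe letters in the windows and not measured binding.

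All 6 genes had a higher pooled level in MEFs than in ES cells. Igfbp7 and Igfbp5 were the most abundant in MEFs, at 443 CPM (95% exact Poisson interval 436 to 450, counting error only) and 417 CPM (410 to 424) over the pooled wells. In ES cells Igfbp2 was the most abundant, at 47.4 CPM (42.9 to 52.2). Each of the 6 was at least 2-fold higher in MEFs, beside 58.5% of the 12818 genes with at least 20 reads, and none was at least 2-fold higher in ES cells, beside 15.4%. The median gene was itself higher in MEFs by 1.48 on the log2 scale, against a median of 3.54 over the 6. Relative to that median gene, 5 of the 6, all but Igfbp2, were at least 2-fold higher, beside 33.3% of all genes. No p-value is given, because no label separates cultures of a type and each type is therefore 1 sample. The spread quoted with a ratio is its SD when computed in each of the 8 plate rows, all of which held both types. Cell types filled opposite sides of the plate, so plate column and type cannot be told apart.

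Igfbp7 was the member that all MEFs held and that separated the types most evenly. Its lowest, median and highest level over the 44 MEFs were 6.03, 365 and 2707 CPM, and over the 45 ES cells 0, 4.26 and 896 CPM. The highest ES cell was the shallow replicate 7, on 21 reads. The ranges overlap, but 39 of 44 MEFs and 5 of 45 ES cells were at 100 CPM or more. The pooled ratio of MEF over ES cell was 4.08 on the log2 scale (SD 1.93 over 8 plate rows), and Igfbp7 was at least 2-fold higher in MEFs in 8 of 8 rows. A read in every MEF was found for 4.49% of the 7190 genes with at least 500 MEF reads. The lowest MEF was replicate 62, at 6.03 CPM, and replicate 57 was the highest.

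Igfbp5 was nearly as abundant in the pool of MEFs but not in the typical MEF. Its MEF levels ran from 0 through a median of 4.88 to 8345 CPM in replicate 88, with replicates 83, 77 and 60 at 3988.5, 3871 and 1761 CPM. ES cells ran from 0 (also the median) to 341 CPM in the shallow replicate 7, on 8 reads. Few MEFs were high and most lay within the ES cell range. The pooled log2 ratio was 4.00 (SD 3.61 over 8 plate rows), with MEFs higher in 6 of 8 rows, and 3.41 without MEF replicate 88, which held 34.8% of the MEF reads.

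Igfbp3, the main serum carrier, was also high in few MEFs. MEF levels ran from 0 through a median of 2.43 to 5972 CPM in replicate 82, and the next highest were 920 CPM in replicate 60 and 694 CPM in replicate 65. In ES cells the gene ran from 0, also the median, to 300 CPM in replicate 2, where 5 reads gave that level. The pooled log2 ratio was 3.96 (SD 2.69), with MEFs higher in 7 of 8 plate rows, and the upper rows (A to D) gave 4.57 but the lower rows (E to H) 1.45. Replicate 82 was a shallow MEF well, with 229894 gene reads, and held 63.2% of the CPM summed over MEFs but 26.3% of the reads.

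Igfbp2 was higher on average in MEFs, yet its typical level was not. MEFs ran from 0 through a median of 0.789 to 4630.2 CPM in replicate 86, followed by 1265 CPM in replicate 88, 757 CPM in replicate 49 and 601 CPM in replicate 81. ES cells ran from 0 through a median of 6.17 to 726 CPM in the shallow replicate 7, on 17 reads. More ES cells than MEFs were at 10 CPM or more, 20 of 45 against 11 of 44, while 2 MEFs and no ES cell passed 1000 CPM. In the shallower ES cell wells fewer reads reach 10 CPM, and the ES cell median was 3 reads in replicate 25. The pooled log2 ratio of 1.38 was far within its SD of 4.96 over the 8 plate rows, of which 4 had MEFs higher, and it was −0.013 under median-of-ratios scaling. MEF replicate 86 held 42.3% of the MEF reads, and without it the ratio was 0.60. The lowest row value, −8.85 in row B, also enters the SD and rested on 1 MEF read beside 92 ES cell reads.

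Igfbp4 and Igfbp6 were the lowest members in both types. Igfbp4 ran in MEFs from 0, also the median, to 336 CPM in replicate 80, with 221 CPM in replicate 56 and 195 CPM in replicate 60, and in ES cells to 118 CPM in replicate 3. Its pooled log2 ratio was 2.85 (SD 2.11 over the 6 plate rows in which a type had more than 3 reads), and 4.602 without ES cell replicate 3, which held 17 of the 24 ES cell reads. Igfbp6 ran in MEFs from 0, also the median, to 356 CPM in replicate 62, with 147 CPM in replicate 87, and in ES cells to 42.8 CPM. Its pooled log2 ratio was 3.12 (SD 1.61 over 7 plate rows), and 3.85 without ES cell replicate 10, which held 8 of 19 ES cell reads. A type without reads in a plate row took a floor of 3 reads, which touched 6 rows of Igfbp4 and 4 of Igfbp6, so for these genes many rows gave a bound or, with at most 3 reads in both types, no ratio. The floor also touched 1 row each of Igfbp2, Igfbp3 and Igfbp5, row H, which had no ES cell read of them. That bound was the highest row value of Igfbp5 (8.35) and of Igfbp2 (5.51), and it enters their SDs and row counts.

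**Figure D1:**
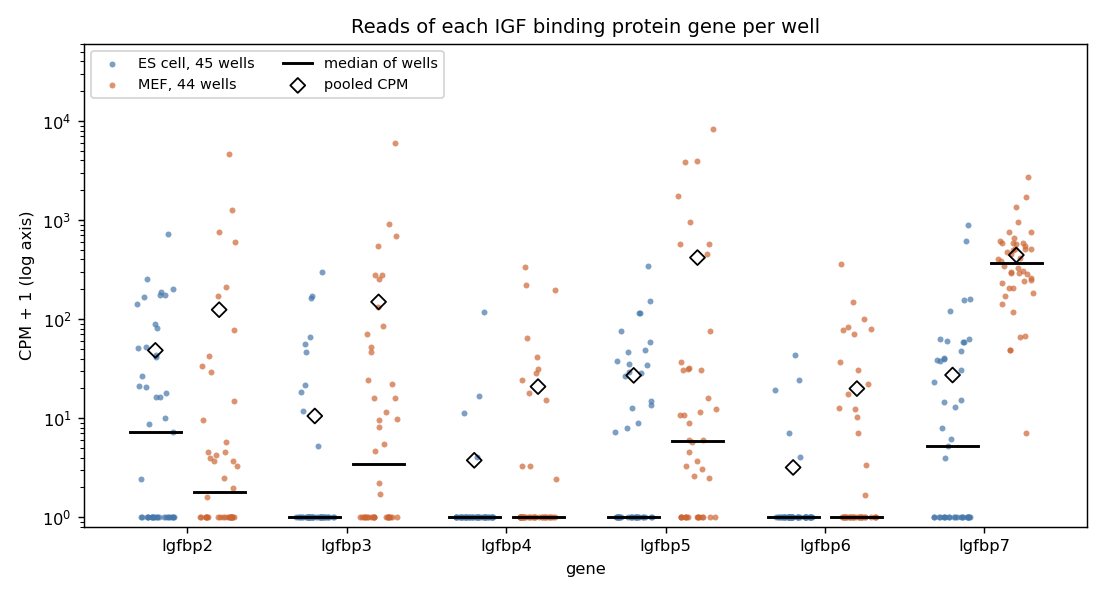
Level of each gene in each kept well, as CPM plus 1 on a log axis, for 45 ES cells and 44 MEFs; bars are medians over wells and diamonds the pooled CPM. Igfbp7 forms a band in MEFs between 6.03 and 2707 CPM, whereas the other 5 genes have pooled values far above their MEF medians.

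**Figure D2:**
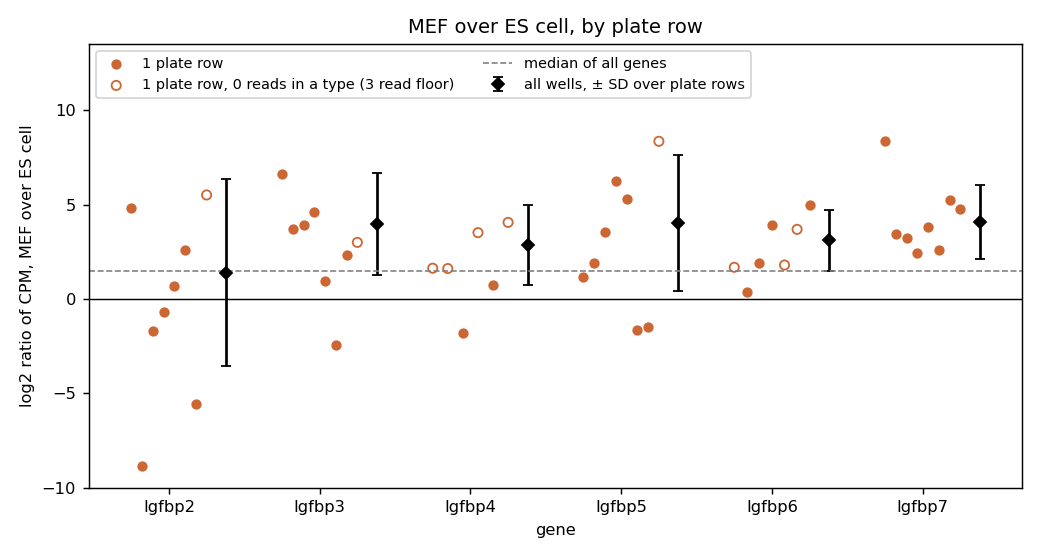
Log2 ratio of MEF over ES cell for each of the 8 plate rows (open circles where a type had 0 reads), with the ratio over all wells and the SD over rows, and a dashed line at the median of all genes, 1.48. Igfbp7 lies above 0 in 8 of 8 rows and Igfbp2 in 4 of 8.

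The order of pooled CPM in MEFs was Igfbp7, Igfbp5, Igfbp3, Igfbp2, Igfbp4 and Igfbp6. None of the 5 neighbours in that order differed beyond the spread over plate rows: the log2 ratio of Igfbp7 over Igfbp5 was 0.09 with an SD of 2.99, and that of Igfbp2 over Igfbp4, the widest step, was 2.64 with an SD of 3.81. Counted by cell, Igfbp7 exceeded Igfbp5 in 35 MEFs and was lower in 9, Igfbp5 exceeded Igfbp3 in 22 and was lower in 15, Igfbp3 exceeded Igfbp2 in 20 and was lower in 15, and Igfbp2 exceeded Igfbp4 in 18 and was lower in 10. Igfbp4 exceeded Igfbp6 in 10 MEFs and was lower in 16, against the pooled order. In ES cells the order was Igfbp2, Igfbp7, Igfbp5, Igfbp3, Igfbp4 and Igfbp6. There 1 step, from Igfbp3 to Igfbp4 (1.79, SD 1.66 over 6 plate rows), exceeded its spread. Igfbp4 had no ES cell read in rows B, D and E among these, so the floor of 3 reads entered that SD. A read per transcript end does not grow with length. Per kilobase of transcript, the MEF order changed to Igfbp7 (365 CPM per kilobase), Igfbp2 (94.7), Igfbp5 (71.2), Igfbp3 (60.8), Igfbp6 (14.7) and Igfbp4 (9.60), since Igfbp5 is listed at 5854 bases and Igfbp2 at 1304. Igfbp7 was first in MEFs and Igfbp2 first in ES cells on both of these scales, but by the mean of per-cell CPM Igfbp7 (56.8 CPM) came before Igfbp2 (55.7 CPM) in ES cells.

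Detection shows the same contrast between Igfbp7 and the rest. Reads of Igfbp7 were found in 44 of 44 MEFs, of Igfbp5 in 29, Igfbp3 in 24, Igfbp2 in 23, Igfbp6 in 17 and Igfbp4 in 13. In ES cells the numbers were 24 of 45 for Igfbp7 and for Igfbp2, 20 for Igfbp5, 10 for Igfbp3, 5 for Igfbp6 and 4 for Igfbp4. As MEF wells were deeper, the expected share at 20000 gene reads per well was computed for the 44 MEFs and the 42 ES cells that reached this depth. At that depth Igfbp7 was expected in 94.5% of MEFs and 29.5% of ES cells, and Igfbp3 in 29.2% and 11.9%. Igfbp2 went the other way, with 20.9% of MEFs and 34.2% of ES cells, and Igfbp5 was close, at 29.3% and 25.3%. Igfbp4 was expected in 14.02% of MEFs and 3.47% of ES cells, and Igfbp6 in 18.9% and 3.63%.

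**Figure D3:**
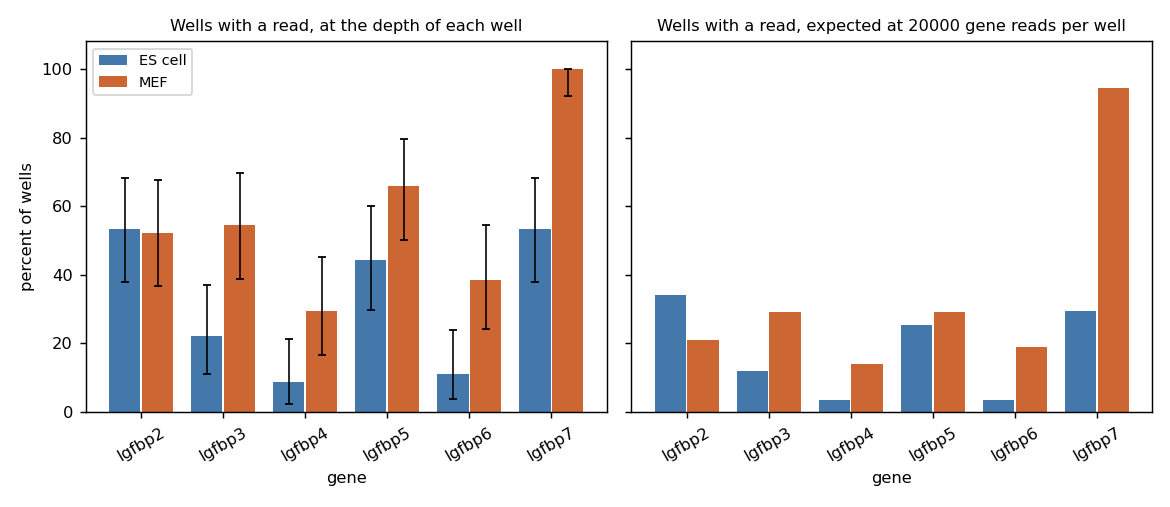
Percent of wells with a read of each gene in ES cells and MEFs, at the depth of each well (left, with 95% Clopper-Pearson intervals for counting error) and the expectation at 20000 gene reads per well (right). At equal depth Igfbp7 is expected in 94.5% of MEFs, and Igfbp2 is the 1 gene with a larger share of ES cells than of MEFs.

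Empty wells set the background for these shares. Of the 4 negative controls, with a median of 3814.5 gene reads, 1 held 3 reads of Igfbp5 and 6 of Igfbp7, and no other member had a read in any of them (0 of 12527 gene reads, which allows up to 239 CPM). Averaged over wells, Igfbp7 had 1.5 reads per negative control, 5.09 per ES cell and 354 per MEF. Igfbp5 had 0.75, 5.04 and 333 reads, and Igfbp2 had 0, 9.18 and 98.6 reads. The share of negative controls with an Igfbp7 read, 25% (0.631 to 80.6%, Clopper-Pearson), reaches over that of ES cells, 53.3% (37.9 to 68.3%). Igfbp5 had the same share and limits in the negative controls, against 44.4% of ES cells. For Igfbp2, Igfbp3, Igfbp4 and Igfbp6, with 0 of 4 empty wells, the upper limit of 60.2% also lies above their ES cell shares. With 4 empty wells this limit is never below 60.2%, so a lower share could not have been separated. The shares therefore could not decide, for any member, whether reads in ES cell wells were background, and no conclusion is drawn from them. In reads, Igfbp3, Igfbp4 and Igfbp6 averaged 0 per negative control and 1.84, 0.533 and 0.422 per ES cell. Nor could the MEF shares of Igfbp2, Igfbp3, Igfbp4 and Igfbp6 decide, as all were below 60.2%. The MEF share of Igfbp5, 65.9%, was under its limit of 80.6%, and that of Igfbp7 was above it. The mean reads per well of all 6 members were nevertheless far higher in MEFs than in negative controls. In CPM the few reads of the empty wells weigh more, and their pooled Igfbp7 level was 479 CPM.

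Few MEFs held most of the reads of each member except Igfbp7. The smallest number of MEFs with 50% of a gene's summed CPM was 1 for Igfbp2 and Igfbp3, 2 for Igfbp4 and Igfbp5, 3 for Igfbp6 and 10 for Igfbp7. Over the 7190 genes with at least 500 MEF reads the median was 5, and 24.2% of them needed 3 or fewer. The top MEF held 58.9% of the summed CPM of Igfbp2, 63.2% of Igfbp3, 40.04% of Igfbp5, 34.5% of Igfbp4, 33.9% of Igfbp6 and 12.96% of Igfbp7. Counted in reads, which give deep wells more weight, the number was 2 for Igfbp2 and 3 for Igfbp3. Without the well of the highest CPM it was again 2 and 3. Igfbp6 needed 4 wells both ways, past the mark of 3, while Igfbp4 and Igfbp5 stayed at 2. Reads lack molecular identifiers, so many reads in 1 well can be copies of few molecules, and their part in the concentration was not tested.

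**Figure D4:**
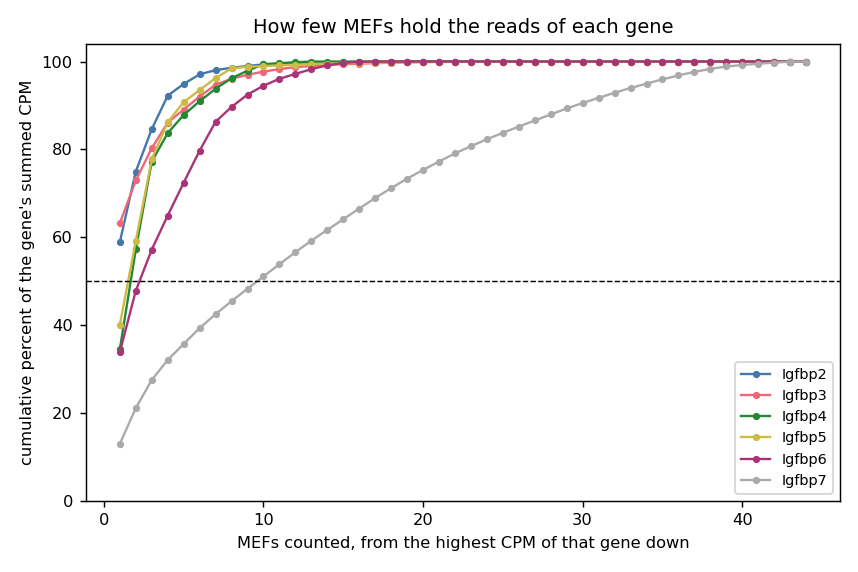
Cumulative percent of each gene's CPM summed over the 44 MEFs, as wells are added from the highest level of that gene down, with a dashed line at 50%. Igfbp2 and Igfbp3 pass 50% with 1 well, Igfbp4 and Igfbp5 with 2, Igfbp6 with 3 and Igfbp7 with 10.

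Which member led therefore differed from MEF to MEF. Igfbp7 had the most reads of the 6 in 25 of 44 MEFs, with 55.8 to 100% of the cell's reads of the 6. Igfbp5 led in 8 (replicates 56, 60, 69, 73, 77, 83, 88 and 90), with 49.6 to 86.8%. Igfbp3 led in 4 (51, 65, 82 and 92), Igfbp2 in 3 (49, 81 and 86), Igfbp6 in 3 (62, 70 and 91) and Igfbp4 in 1 (80). Over all MEFs the median share of Igfbp7 was 60.3%, and every other member had a median share under 1%, the largest being 0.983% for Igfbp5. The summed level of the 6 ran from 79.6 through a median of 638 to 10189 CPM, so MEFs differed in total as well as in kind. The highest sums belonged to cells led by another member than Igfbp7: replicate 88 (Igfbp5), 82 (Igfbp3), 86 (Igfbp2), 83 and 77 (both Igfbp5).

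**Figure D5:**
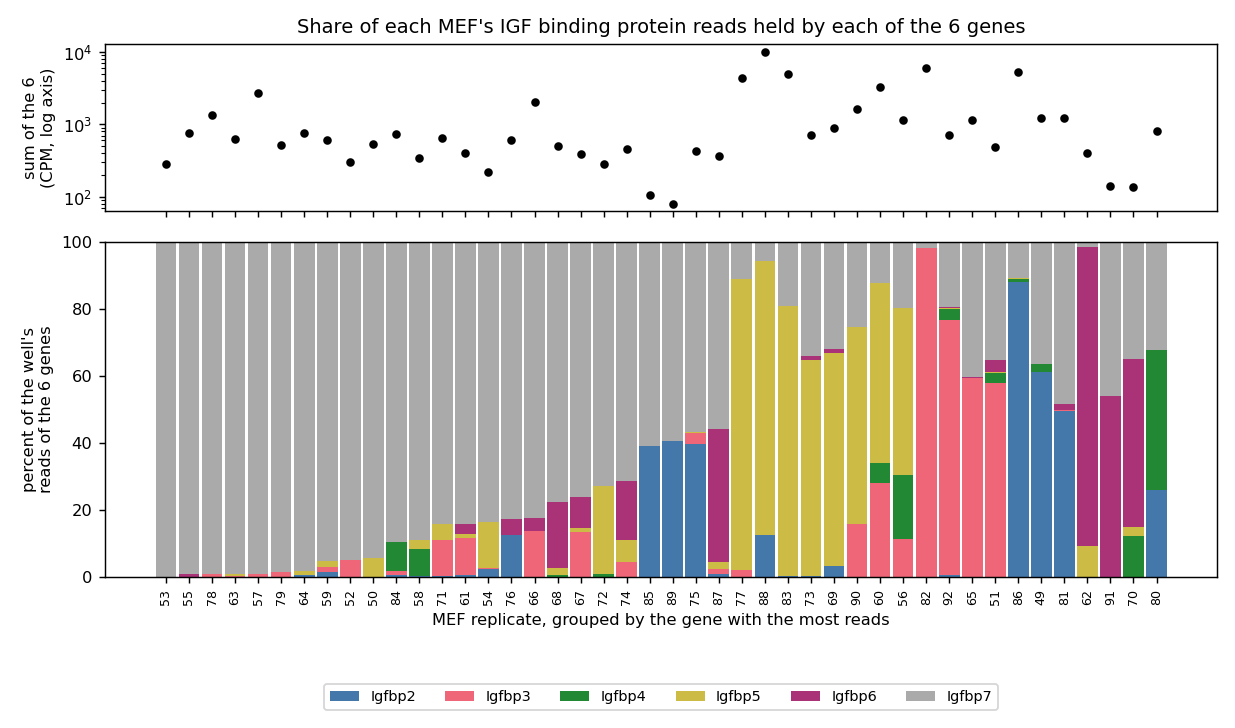
For each of the 44 MEFs, the sum of the 6 genes in CPM on a log axis (top) and the percent of that sum from each gene (bottom, bars add to 100%), with cells grouped by their leading gene. Igfbp7 leads in 25 cells, Igfbp5 in 8, Igfbp3 in 4, Igfbp2 and Igfbp6 in 3 each and Igfbp4 in 1.

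A single MEF held few members at a time. At 10 CPM or more, 5 MEFs held 1 member, 17 held 2, 16 held 3 and 6 held 4, and none held 5 or 6. The commonest sets were Igfbp7 alone, Igfbp7 with Igfbp3 and Igfbp7 with Igfbp5, in 5 MEFs each. A median MEF had reads of 3.5 members at its own depth and an expected 2.07 at 20000 gene reads, against 2 and 0.683 in ES cells. Replicate 62, the single MEF under 10 CPM of Igfbp7, held 356 CPM of Igfbp6 and 36.2 CPM of Igfbp5.

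Levels of the members showed little relation to each other across MEFs. Over the 15 pairs, Pearson r on log2(CPM + 10) across the 44 wells ran from −0.38 (Igfbp6 with Igfbp7) to 0.20 (Igfbp2 with Igfbp4), as a description with no p. Igfbp2 and Igfbp3 had r of −0.30: 11 MEFs held Igfbp2 and 17 held Igfbp3 at 10 CPM or more, and 1 held both. With any read counted, 11 MEFs held both, of 23 and 24, so the small overlap depends on the level chosen. The overlap to be had by chance was not computed for any pair. Igfbp6 and Igfbp7 had r of −0.02 in plate rows A to D and −0.70 in rows E to H, so that value is not steady over the plate. The chromosome neighbours Igfbp2 and Igfbp5 had r of 0.07 and shared 4 MEFs at 10 CPM or more, of 11 and 17, although replicate 88 held both above 1000 CPM. Igfbp1, next to Igfbp3, had no read in any MEF or ES cell. The floor of 3 reads would be 0.0853 CPM in MEFs and 0.344 CPM in ES cells. None of the 6 members followed depth, with r against log2 gene reads between −0.03 and 0.12.

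Among marker sums and members across MEFs, the Pearson r farthest from 0 was that of Igfbp6, 0.48 with the summed macrophage markers. By Spearman rho this pair had 0.33, and Igfbp2 with the fibroblast list lay farther from 0, at 0.41. The macrophage list reached 75.3 CPM at most, 3 of its 6 genes had a read in MEFs, and Emr1, Cd68 and Aif1 were at 0. Its part in the Igfbp6 values was not tested. For the other 5 members r with the macrophage list lay between −0.26 and 0.13, and for all 6 members r with the fibroblast list lay between −0.24 and 0.29.

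In ES cells Igfbp2 led most often and 9 cells held no member. Igfbp2 had the most reads of the 6 in 16 of 45 cells, Igfbp7 in 10, Igfbp5 in 7, Igfbp4 in 2 and Igfbp3 in 1. The sum of the 6 ran from 0 through a median of 46.9 to 2134 CPM. Igfbp2 had 1.80 reads per Igfbp7 read in ES cells and 0.279 in MEFs, and without the well of each type with the most Igfbp2 reads (ES cell replicate 22, MEF replicate 86) the figures were 1.86 and 0.163. The MEF figure thus moved with 1 well, while the ES cell figure stayed above it. For the other members this proportion also moved with single wells. Igfbp5 had 0.991 reads per Igfbp7 read in ES cells and 0.942 in MEFs, but 0.768 without ES cell replicate 10 and 0.628 without MEF replicate 88. Igfbp3 had 0.362 and 0.335, but 0.273 without ES cell replicate 21 and 0.247 without MEF replicate 82. Igfbp4 had 0.105 and 0.0448, but 0.0318 without ES cell replicate 3, and Igfbp6 had 0.0830 and 0.0427, but 0.0482 without ES cell replicate 10. Without ES cell replicates 4, 7 and 30 the ES cell figure for Igfbp2 was 2.21. These proportions compare 1 sample of each type, and part of the ES cell reads of each gene may be background, as above.

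In ES cells most pairs of members had r above 0. Over the 15 pairs r ran from −0.07 to 0.62, the latter for Igfbp3 with Igfbp7, with a median of 0.28. The summed level had r of 0.81 with Igf2, 0.53 with the fibroblast marker sum and 0.56 with the number of genes detected. ES cell replicates 4 and 7, which also held high fibroblast markers, had 618 and 896 CPM of Igfbp7, while replicate 30 held no read of any member. These 3 wells gave 24.02% of the ES cell reads of Igfbp7, 15.7% of Igfbp3, 6.78% of Igfbp2 and 3.52% of Igfbp5. Without them r was 0.38 for Igfbp3 with Igfbp7 and 0.81 for the sum with Igf2, and r of Igfbp2 with Igfbp7 went from 0.43 to 0.17. The part of fibroblast RNA in the ES cell values was not tested.

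The ligands and receptors that the binding proteins act on were also higher in MEFs. Of 7 listed, 5 had at least 20 reads and 5 were at least 2-fold higher in MEFs, beside 58.5% of all genes. All 5 were so relative to the median gene too, beside 33.3%. Igf2, the fetal ligand, had 60.5 CPM in ES cells and 855 CPM in MEFs (log2 ratio 3.82, SD 2.80), with a read in 38 of 44 MEFs. Negative controls held 22 Igf2 reads, 5.5 per well against 11.7 per ES cell and 683 per MEF, and 12 reads of Igf1r, 3 per well against 4.31 per ES cell, so the ES cell values of both, and the r with Igf2 given above, include an unknown share of background. Igf1, the other ligand, had 2.06 and 59.8 CPM (4.86, SD 2.57), but only 12 MEFs held a read and 1 of them held 50% or more of the summed CPM. Igf1r, which transmits the signal, and Igf2r, which clears IGF2, were read in 44 of 44 MEFs, with log2 ratios of 3.71 (SD 1.40) and 3.78 (SD 1.05) and MEFs higher in 8 of 8 plate rows. Both receptors were thus spread over MEFs like Igfbp7, with 10 cells holding 50% of the CPM of each.

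Proteases that cut binding proteins, and their inhibitors, gave 6 measured genes of 9 listed, and all 6 passed 2-fold toward MEFs, beside 58.5% of all genes, or 5 of them relative to the median gene, beside 33.3%. Pappa, which cuts Igfbp4, had 10.8 CPM in ES cells and 208 CPM in MEFs (log2 ratio 4.27, SD 2.70) and was read in 36 MEFs, whereas Igfbp4 was read in 13. Stc1, an inhibitor of Pappa, was read in 7 MEFs, at 10.0 CPM over the pool. Ctsd, the lysosomal protease cathepsin D, was the highest of the list, with 1100 CPM in MEFs against 113 CPM in ES cells (3.29, SD 0.70). Htra1, a secreted serine protease, had a log2 ratio of 3.68 (SD 1.03) and Adam12, a membrane protease, 2.75 (SD 2.23).

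Other secreted proteins with an IGF binding protein domain, 6 measured of 8 listed, likewise all passed 2-fold toward MEFs, with a median log2 ratio of 4.15. Ctgf and Cyr61, matricellular growth regulators, had 843 and 377 CPM in MEFs and were read in 43 and 44 MEFs. Wisp1 (425 CPM, log2 ratio 4.80, SD 1.97) and Crim1 (397 CPM, 3.88, SD 1.38) had reads in 42 and 44 MEFs. Nov and Wisp2 were instead concentrated, with 50% of the summed CPM in 2 MEFs each. Of 14 signalling genes, 13 were measured and 12 passed 2-fold toward MEFs, or 9 relative to the median gene, with Irs1, an adaptor of the IGF1 receptor, at 5.86 (SD 1.10) on 6 reads in ES cells. Irs2 had no ES cell read, and its bound of 0.99 against the floor did not reach the 2-fold mark. Over the whole list 29 of 31 measured genes did so, against the 58.5% of all genes, and 25 were so relative to the median gene, against 33.3%. Igfals, the partner of Igfbp3 in the serum complex, was the 1 gene higher in ES cells, on 24 reads in 2 wells and 7 reads in 1 MEF.

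Genes whose level across MEFs was most like that of each member differed from member to member. The closest was Dcun1d3 for Igfbp5 (r of 0.62), Itprip for Igfbp4 (0.61), Ifi30 for Igfbp6 (0.57), Cdk11b for Igfbp7 (0.55), Eps8 for Igfbp3 (0.55) and Nuak1 for Igfbp2 (0.50). These are the highest of 4618 or 4619 genes across 44 wells, among which 95% had r under 0.26 to 0.29. The lowest value was −0.59, for Igfbp5 with Adamts5, a matrix protease. In ES cells Igfbp7 was closest to Igf2 (0.72) and Igfbp2 to Mmp2 (0.60), a matrix protease, followed by Igf2 (0.54). The lowest value for both was with Rpl4, a ribosomal protein gene, at −0.72 and −0.46. Rpl4 held 1580552 of the 8720507 gene reads of ES cells, and CPM divides by totals that include it. The part of this in both values was not tested.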

How the data were processed

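Each well of the plate was 1 sample. The deposited table held raw read counts per transcript and well, not normalised by the authors per the file headers, and a transcript length column. The submitters' processing notes name Bowtie, with no version, and no source used here gives the genome build. Counts are maximum exon hits, with alternative mappings included, per the file headers. Molecular identifiers are not mentioned, so PCR copies were counted and intervals cover counting error only.

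Columns were mapped to samples by well. Wells with at least 10000 gene reads were kept. Gene rows (21711) left out 1217 repeat rows and 8 spike-in rows. Reads were summed per type and divided by summed gene reads (CPM), with a floor of 3 reads for a sum of 0 and no ratio where both sums were at or under it. Intervals are at the 95% level. Detection was thinned to 20000 reads by its exact hypergeometric expectation. Correlations used log2(CPM + 10) and are descriptions. The ratio script was tested on simulated data. Tools were numpy 2.4.6, pandas 2.3.3, scipy 1.17.1 and matplotlib 3.10.9. Gene positions came from GENCODE vM21 and promoters from RefSeq, both GRCm38, and all 6 symbols matched in each.

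The members, the IGF gene list, the marker lists and the alternatives were chosen with earlier results of these data known. Named are the 6 members, listed IGF genes with at least 20 reads, and for each member with reads in at least 25% of wells the genes with the 3 highest and the lowest r. Likeness partners had reads in at least 50% of wells and at least 1000 reads in MEFs or 500 in ES cells. The counts of wells holding 50% of a gene's CPM, the reads per Igfbp7 read, with and without single wells, and the wells left out singly were added after values were seen.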

Additional observations from a re-analysis of the deposited data

Results flagged for a closer look

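Negative control replicate 93 held 688.71 CPM of Igfbp5, 1377.4 CPM of Igfbp7 and 2066.1 CPM of the 6 genes together, far from the other 3 negative controls, which were at 0 for all 3 measures. These values rest on 3 reads of Igfbp5 and 6 reads of Igfbp7. Where all other wells are at 0, a well with any read lies apart. How often chance sets a well apart in this way was not computed, and the 3 measures share the same 9 reads.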

How the results depend on the processing

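All alternatives planned were run. Of 84 recomputed ratios of the 6 genes, 76 moved by less than the SD over plate rows, which is wide: Igfbp3 was 4.57 in rows A to D and 1.45 in rows E to H, and Igfbp2 was 5.94 with spike-in scaling. Igfbp2 turned to −0.013 with median-of-ratios scaling, which shifts every gene by 1.39. Without ribosomal protein genes in the totals the Igfbp2 ratio was 0.75, under the 2-fold mark. Spike-in scaling, which raised the median gene to 6.04, gave log2 ratios of 8.52 for Igfbp3, 7.41 for Igfbp4, 8.56 for Igfbp5, 7.68 for Igfbp6 and 8.64 for Igfbp7. Igfbp6 was 1.25 with 10 CPM added and 5.58 in plate rows E to H, against 2.09 in rows A to D. The number of the 6 at least 2-fold higher in MEFs was 5 or 6 throughout. Listed IGF genes at least 2-fold higher in ES cells, 1 as reported, numbered 0 with spike-in scaling and with at least 100 reads, and 2 without a filter on low counts. Median-of-ratios scaling split the calls over all genes into 4440 for MEFs and 4077 for ES cells, against 7501 and 1977 as reported. The median MEF held 2.07 members when thinned to 20000 reads. Of 105 recomputed correlations in MEFs, 102 moved by less than 0.3. The cause of these changes was not tested. No paired analysis was possible because replicate numbers run through the plate and no number occurs in both types. With 1 plate and no separate cultures named, spread between cultures is unknown. A gene without a read in a shallow ES cell well may have been present but missed at this depth.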
